A study of Mus musculus with 4 samples.

Results

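The 10 genes described here encode the core of the transforming growth factor beta (TGF-beta) and Smad pathway: the ligand Tgfb1, the receptors Tgfbr1 and Tgfbr2, the signalling Smads Smad2, Smad3 and Smad4, the inhibitory Smads Smad6 and Smad7, and the co-repressors Ski and Skil. They were chosen by name, and all 10 were found among the 32285 genes of the count matrices. Transcripts and surface antibodies were counted cell by cell in mouse bone marrow cells that were positive for CD45.2, a leukocyte surface protein form used to tell donor from host cells, and for Kit, the stem cell factor receptor of blood stem and progenitor cells. The cells were taken 10 weeks after transplantation. Each of 4 groups had 1 library. A control was set beside Mll3SI, Mll4SI and Mll3/4SI, and the library names were wt, mll3KI, mll4KI and dKI. Mll3 and Mll4 are other names of Kmt2c and Kmt2d, which encode methyltransferases of histone H3. The labels do not spell out SI or the alleles, nor do they give the donors' sex or age, the number of animals, the host, or what the hashtag antibodies marked.

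TGF-beta binds TGFBR2, which recruits and activates TGFBR1, and the active receptor phosphorylates SMAD2 and SMAD3. These join SMAD4 and act on target genes in the nucleus, where SKI and SKIL (also called SnoN) restrain them. SMAD7 and SMAD6 block signalling at the receptors, SMAD6 mainly that of bone morphogenetic proteins (BMPs), and TGF-beta itself induces Smad7. In bone marrow the pathway is known for holding blood stem cells in quiescence.

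The libraries held 7524 to 11678 cell barcodes, of which 6743 control, 8023 Mll3SI, 10186 Mll4SI and 6755 Mll3/4SI cells were kept, with median depths of 12800 to 19185 UMIs (unique molecular identifiers, counting single transcripts). Pairs of libraries shared 11 to 21 cell barcodes. Kit was read at 100.2 to 112 CPM (counts scaled to 1000000 UMIs of a library or class) and Ptprc, which encodes CD45, at 179 to 312 CPM in every library. Xist, expressed in female cells, stood at 0.032 CPM in control, 0.19 in Mll3SI, 1148 in Mll4SI and 1360 in the Mll3/4SI library, and the Y-linked Eif2s3y at 63.3, 62.0, 0 and 0 CPM. The Mll4SI and Mll3/4SI libraries therefore differed from control in sex-linked transcripts as well as in their label. No group had a second library, so no difference below has a replicate check or a p-value, and the bracketed 95% intervals reflect only counting error. The 3 comparisons share the control library.

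Cells were clustered without the 10 genes and named from marker genes. The HSC/MPP-like class (stem cells and multipotent progenitors) was a single cluster led by Mecom, Angpt1 and Msi2, with 369 control, 348 Mll3SI, 273 Mll4SI and 144 Mll3/4SI cells. The granulocyte-monocyte-like class held 4898, 6122, 8673 and 5175 cells in the same order. Of these, 1498 Mll3/4SI cells were granulocyte-like cells of a stage between early and late. The control, Mll3SI and Mll4SI libraries held 19, 22 and 29 such cells. An unnamed cluster, number 19, was led by Angpt1, Cpa3 and Arhgap6 and carried 7 stem cell markers and 3 basophil or mast cell markers. It held 698 Mll3/4SI cells, 2 Mll4SI cells and none of the other libraries, and it is given apart from the stem cell class below. Levels are CPM summed over the cells of a class, and a difference is the log2 ratio of CPM + 1 to control, which understates the change of low genes. Intervals are those of the ratio without the added 1. A gene was called past the fold at a log2 ratio of 0.5 in either direction, among genes with a mean of at least 5 CPM over the libraries.

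The 250 bases before the start of Tgfbr2 and Smad6 are shown because their stem cell levels stood apart in the Mll4SI library. Both lie on the minus strand of chromosome 9 in RefSeq's GRCm38.p6. Capitals mark the Smad-binding letters CAGAC or the GC-rich Smad letters GGCGC, each searched on both strands (GTCTG and GCGCC on the other).
Tgfbr2, chr9:116175364-116175613: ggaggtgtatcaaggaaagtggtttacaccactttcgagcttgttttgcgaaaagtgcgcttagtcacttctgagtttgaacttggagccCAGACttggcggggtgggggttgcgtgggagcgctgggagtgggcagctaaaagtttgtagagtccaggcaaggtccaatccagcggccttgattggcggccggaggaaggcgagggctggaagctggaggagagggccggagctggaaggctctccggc
Smad6, chr9:64022060-64022309: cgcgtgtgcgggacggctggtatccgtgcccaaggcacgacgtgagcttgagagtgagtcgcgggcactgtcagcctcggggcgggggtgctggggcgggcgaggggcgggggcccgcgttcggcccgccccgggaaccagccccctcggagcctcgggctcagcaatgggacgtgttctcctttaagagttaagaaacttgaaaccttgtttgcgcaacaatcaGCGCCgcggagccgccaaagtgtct
The Tgfbr2 window held 1 match to CAGAC and 0 to GGCGC, and the Smad6 window 0 and 1. Such letters are common: 42.2% of 32851 windows of the same length held CAGAC and 32.0% held GGCGC. The matches describe the sequence and are not shown to be sites.

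The 10 genes lie on chromosomes 3 (Skil), 4 (Tgfbr1 and Ski), 7 (Tgfb1), 9 (Tgfbr2, Smad3 and Smad6) and 18 (Smad2, Smad4 and Smad7), and none overlaps another counted gene in the GENCODE M21 annotation of GRCm38.

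Among HSC/MPP-like cells Smad7 was the member with the widest difference in Mll3/4SI, at more than double the control level, whereas Smad6 was lowest in Mll4SI. The Mll3SI and Mll3/4SI levels of Smad6 were also under control, with ratio intervals that included 0. Past the fold were 1 member lower in Mll3SI (Smad6), 1 lower in Mll4SI (Smad6) and 1 higher in Mll3/4SI (Smad7), of 10 members tested in each. Smad6 met the 5 CPM minimum mean through its control level, so its calls as lower do not stand apart from that filter. Over all 10321 genes tested, 5.4% were past the fold for Mll3SI (2.74% higher, 2.65% lower), 10.2% for Mll4SI (4.86% and 5.31%) and 9.52% for Mll3/4SI (3.87% and 5.66%), so the shares of members past the fold were near the background. The members' median log2 ratios were -0.078, -0.093 and -0.12, against 0.010, 0.0051 and -0.056 over all genes tested.

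**Figure D1:**
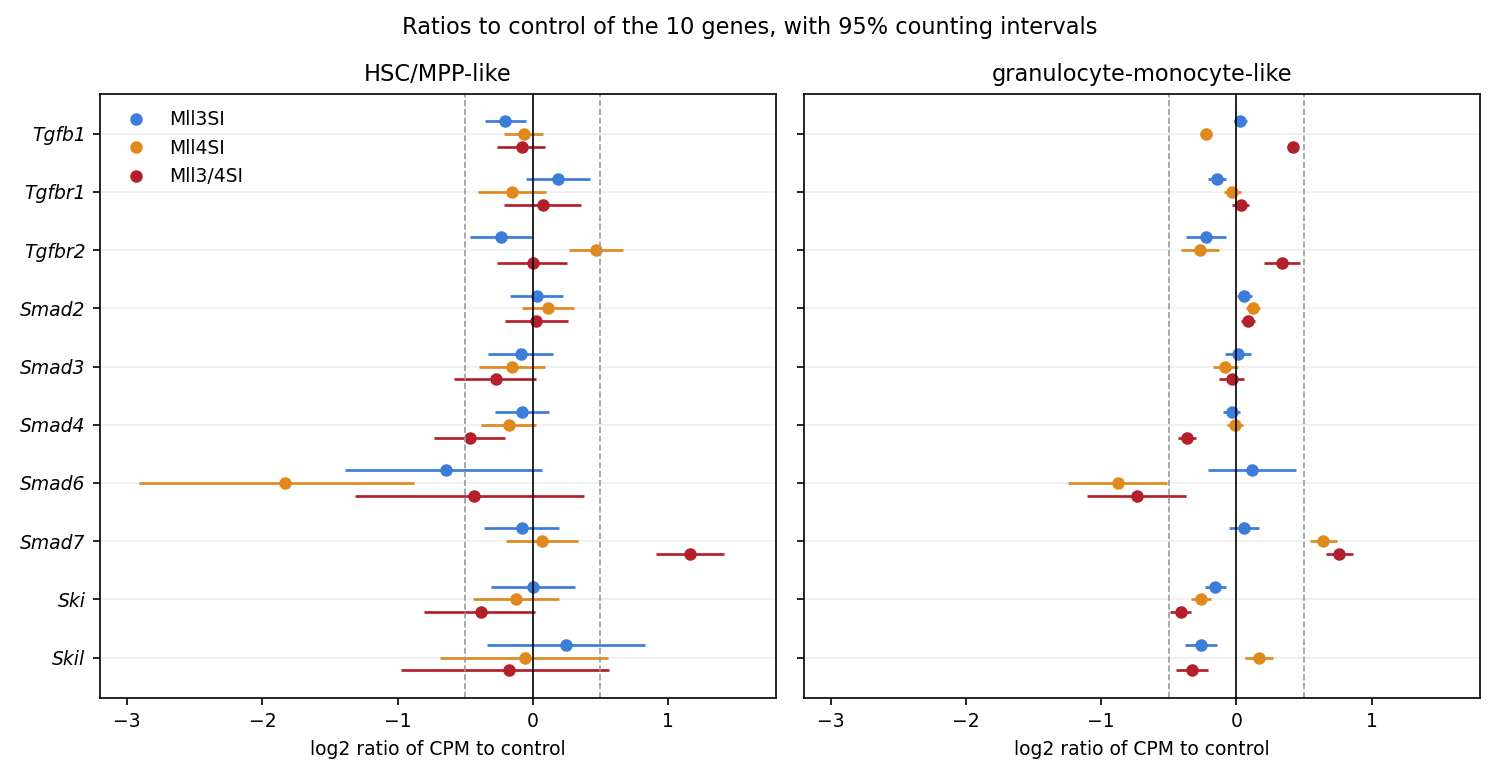
Log2 ratio of CPM to control, without the added 1, for the 10 genes in HSC/MPP-like cells (left) and granulocyte-monocyte-like cells (right), 1 point per library with its 95% counting interval and dashed lines at 0.5 in each direction. Smad7 stands to the right of the dashed line in Mll3/4SI in both classes. Smad6 stands to the left of the dashed line in Mll4SI in both classes. It does so too in Mll3SI among HSC/MPP-like cells and in Mll3/4SI among granulocyte-monocyte-like cells.

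Tgfb1, the ligand, was read in HSC/MPP-like cells at 140.1 CPM in control, 122 in Mll3SI, 134 in Mll4SI and 132 in the Mll3/4SI library. Its log2 ratios were -0.20 [-0.36 to -0.052], -0.068 [-0.22 to 0.079] and -0.082 [-0.26 to 0.093], so only the Mll3SI interval lay off 0, and no ratio reached the fold. Across classes of the control library Tgfb1 was, among the named classes, highest in erythroid-like cells (173 CPM) and lowest in late granulocyte-like cells (52.2 CPM), with the HSC/MPP-like, monocyte-like (147 CPM) and B-lymphoid-like (144 CPM) classes between them, their intervals overlapping. Along granulocyte maturation the control level was 110.03 CPM in early and 52.2 CPM in late cells.

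In granulocyte-monocyte-like cells Tgfb1 stood at 83.7, 85.5, 71.6 and 112 CPM in the order control, Mll3SI, Mll4SI and Mll3/4SI. The Mll3/4SI library was the highest, with a log2 ratio of 0.41 [0.38 to 0.46]. That library also held cluster 15, early granulocyte-like cells led by Ms4a6c, Mpo and Ly6e, with 1082 Mll3/4SI cells and at most 7 of any other library, where Tgfb1 reached 213 CPM. Over the 7 granulocyte- or monocyte-like clusters with at least 50 cells in every library, the 4 levels lay together at 101.1, 101.2, 101.3 and 102 CPM, and the Mll3/4SI ratio was 0.019 [-0.042 to 0.080]. Cluster 19 had the highest Tgfb1 level of any class shown, 231 CPM, and the cluster led by Mcpt8, Prg2 and Ms4a2 (basophil and mast cell genes) had 216 CPM in Mll3/4SI against 149 in control, a log2 ratio of 0.53 [0.36 to 0.72].

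Tgfbr1, which encodes the type I receptor kinase, differed little. Its HSC/MPP-like levels were 51.1, 58.2, 45.9 and 54.0 CPM in control, Mll3SI, Mll4SI and Mll3/4SI, and all 3 intervals of the ratio to control included 0. In granulocyte-monocyte-like cells the levels were 42.3, 38.2, 41.4 and 43.3 CPM, with only the Mll3SI ratio, -0.14 [-0.21 to -0.079], off 0.

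Tgfbr2 encodes the type II receptor that binds the ligand, and it was the receptor gene with the clearest order over cell classes. In control it was read at 63.3 CPM in HSC/MPP-like, 53.0 in B-lymphoid-like, 35.7 in erythroid-like, 8.04 in monocyte-like and 8.45 CPM in late granulocyte-like cells. The first pair and the last pair overlapped within counting error, and the erythroid-like level lay apart from both. The unnamed cluster 20, led by Mcpt8, Prg2 and Ms4a2, held 68.1, 50.9, 83.7 and 55.8 CPM in control, Mll3SI, Mll4SI and Mll3/4SI. B-lymphoid-like cells of Mll3SI (190 cells) were read at 30.2 CPM, under the control level (73 cells).

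HSC/MPP-like cells held Tgfbr2 at 63.3 CPM in control, 53.8 in Mll3SI, 87.7 in Mll4SI and 63.3 in the Mll3/4SI library. Only Mll4SI stood above the others, with a log2 ratio of 0.46 [0.27 to 0.67] that was just short of the fold. With clusters 8 and 17, led by Ccl9 and by Bcl2, counted as HSC/MPP-like the ratio was 0.13, and in cluster 8 alone the Mll4SI level of 25.96 CPM was under the 27.98 CPM of control, with overlapping intervals. HSC/MPP-like cells of Mll4SI also carried more RNA of 17 granulocyte markers (11677 CPM summed, against 3291 in control), 13 of them higher than in control. Tgfbr2 in the granulocyte-like cells of that library was at 6.35 CPM. The part of granulocyte marker RNA in the Tgfbr2 values was not tested. In granulocyte-monocyte-like cells Tgfbr2 stood at 8.71, 7.46, 7.23 and 10.99 CPM. The Mll3/4SI ratio there was 0.30 [0.20 to 0.47], and over the clusters shared by all libraries it was -0.17 [-0.41 to 0.025]; cluster 15 held 25.1 CPM. Cluster 19 had 95.7 CPM of Tgfbr2, above each named class with at least 50 cells in a library. The T/NK-like class, with 12 to 47 cells per library, was read at 79.5 to 163 CPM.

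**Figure D2:**
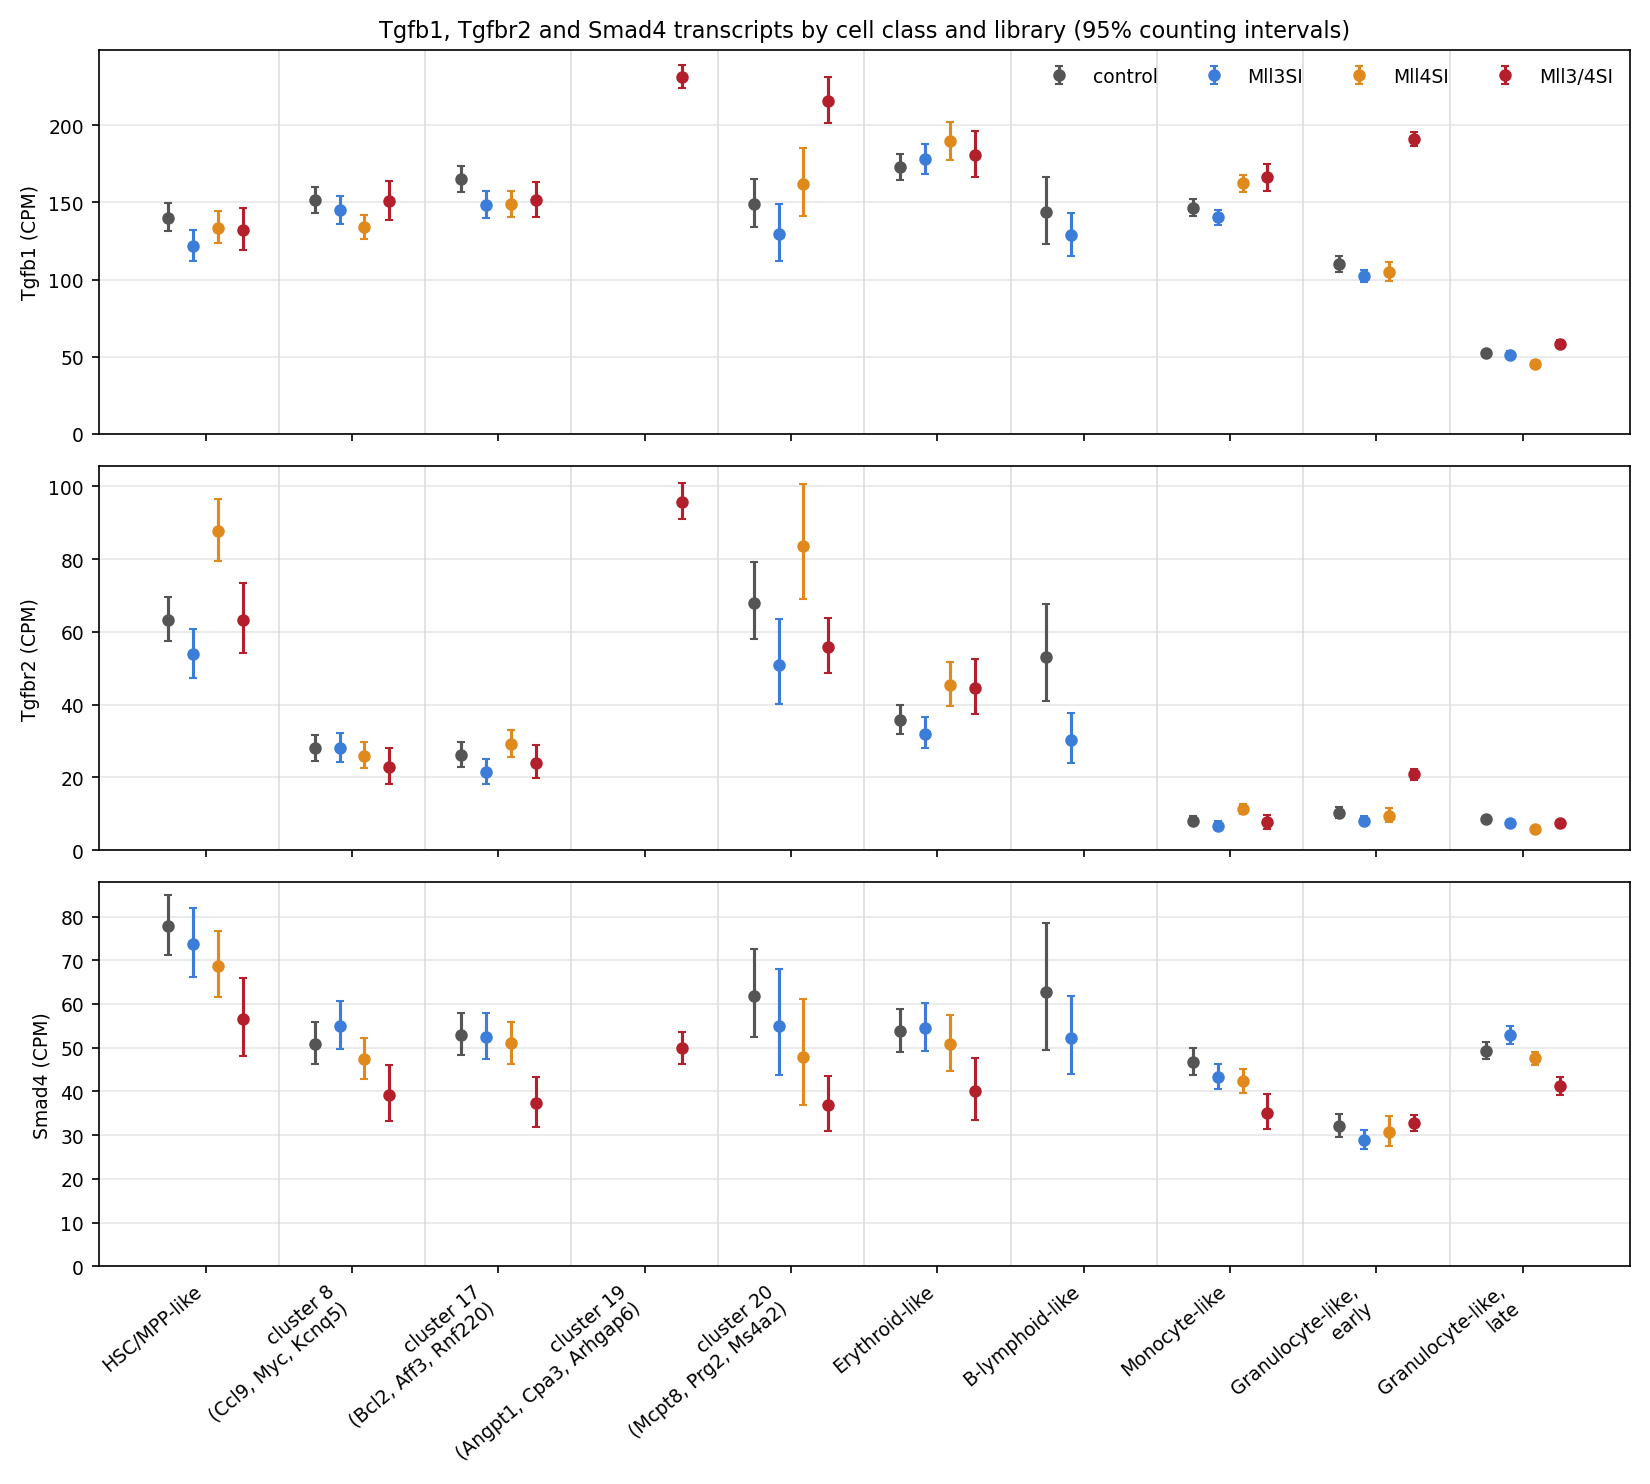
CPM of Tgfb1 (top), Tgfbr2 (middle) and Smad4 (bottom) in each cell class or unnamed cluster, 1 point per library with at least 50 cells there, with 95% Poisson intervals. Tgfbr2 is high in HSC/MPP-like cells and clusters 19 and 20 and at 11.2 CPM or less in monocyte-like and late granulocyte-like cells. The Mll3/4SI points of Smad4 lie below control wherever both are drawn, except in early granulocyte-like cells.

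Smad2 and Smad3 encode the Smads that the receptor phosphorylates. Smad2 was level over libraries, at 77.9, 79.4, 84.1 and 79.4 CPM in HSC/MPP-like cells and 62.8, 65.5, 68.5 and 66.7 CPM in granulocyte-monocyte-like cells. Its widest ratio in these 2 classes was 0.12, in Mll4SI granulocyte-monocyte-like cells, and over single clusters its ratios ran from -0.32 to 0.43, none past the fold. Smad3 was read at 54.5, 51.3, 49.1 and 45.0 CPM in HSC/MPP-like cells, where each interval of its ratio included 0, the lowest being -0.27 [-0.58 to 0.022] in Mll3/4SI. Smad3 in granulocyte-monocyte-like cells lay between 18.01 and 19.2 CPM in all 4 libraries, below its stem cell level in each of them. In the unnamed cluster 8, led by Ccl9, Myc and Kcnq5, Smad3 was read at 45.1, 39.4, 30.5 and 25.97 CPM. Over single clusters the Mll3/4SI ratio was past 0.5 upward in 3 and downward in 3 of 17, so it had no common direction.

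Smad4 encodes the common partner of the signalling Smads, and it was lower in Mll3/4SI in nearly every cell class. HSC/MPP-like levels were 77.9 CPM in control, 73.7 in Mll3SI, 68.8 in Mll4SI and 56.5 in the Mll3/4SI library. The Mll3/4SI library was the lowest, with a log2 ratio of -0.46 [-0.73 to -0.20], short of the fold. In granulocyte-monocyte-like cells the levels were 45.5, 44.4, 45.1 and 35.3 CPM, again with Mll3/4SI apart at -0.36 [-0.43 to -0.30] and the other 3 close together. Within single clusters that had at least 50 cells in both libraries, Smad4 was lower in Mll3/4SI than in control in 16 of 17, 12 of them with an interval below 0. The exception was cluster 22, a cluster of few UMIs, with a ratio of 1.003. In the Mll4SI library Smad4 was lower in 13 of 14 clusters, but only 2 intervals lay below 0.

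The inhibitory Smads followed different patterns. Smad7 was read in HSC/MPP-like cells at 41.1 CPM in control (271 UMIs), 38.9 in Mll3SI (185 UMIs), 43.2 in Mll4SI (206 UMIs) and 92.2 CPM (258 UMIs) in the Mll3/4SI library. The first 3 libraries lay within each other's intervals, and Mll3/4SI stood far above them, with a log2 ratio of 1.15 [0.91 to 1.42]. Its ratio was the 64th highest of the 10321 genes tested. Set against Mll4SI, the other library with Xist, the ratio was 1.08 [0.82 to 1.37]. In that comparison, added after the values were seen, 14.2% of the genes tested were past the fold.

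The share of HSC/MPP-like cells with at least 1 Smad7 UMI was 43.1% in control, 31.3% in Mll3SI, 48.0% in Mll4SI and 68.8% in the Mll3/4SI library, at median depths of 17173, 12108, 16069 and 18480 UMIs. After thinning each cell to 3000 UMIs the shares were 14.99% [11.5 to 19.1], 8.96% [6.17 to 12.5], 7.04% [4.29 to 10.8] and 19.6% [13.4 to 27.0]. At that depth the Mll3/4SI and control intervals overlapped, and the Mll4SI share went against its CPM, so no order was read from it. A thinning to 8000 UMIs, added because of this after those shares were seen, gave 23.1% [18.8 to 27.8], 21.9% [17.3 to 26.9], 29.5% [24.0 to 35.4] and 51.8% [43.2 to 60.3], with 18, 46, 12 and 5 shallower cells left out. There the Mll3/4SI interval lay above the other 3. Both are single random draws.

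The stem cell difference in Smad7 rested on which cells were counted. Cluster 19, with a Smad7 level of 21.8 CPM, held 698 Mll3/4SI cells against 144 in the named class. With cluster 19 counted as HSC/MPP-like the ratio turned to -0.32, and with each cell given the class of its nearest control cells it was 0.18. Mecom, a defining stem cell gene, was read at 462, 547, 414 and 315 CPM in the named class, and Hlf at 302, 318, 333 and 277 CPM. The 15 stem cell markers summed to 4585 CPM in control and 4293 in Mll3/4SI, with none at 0.

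**Figure D3:**
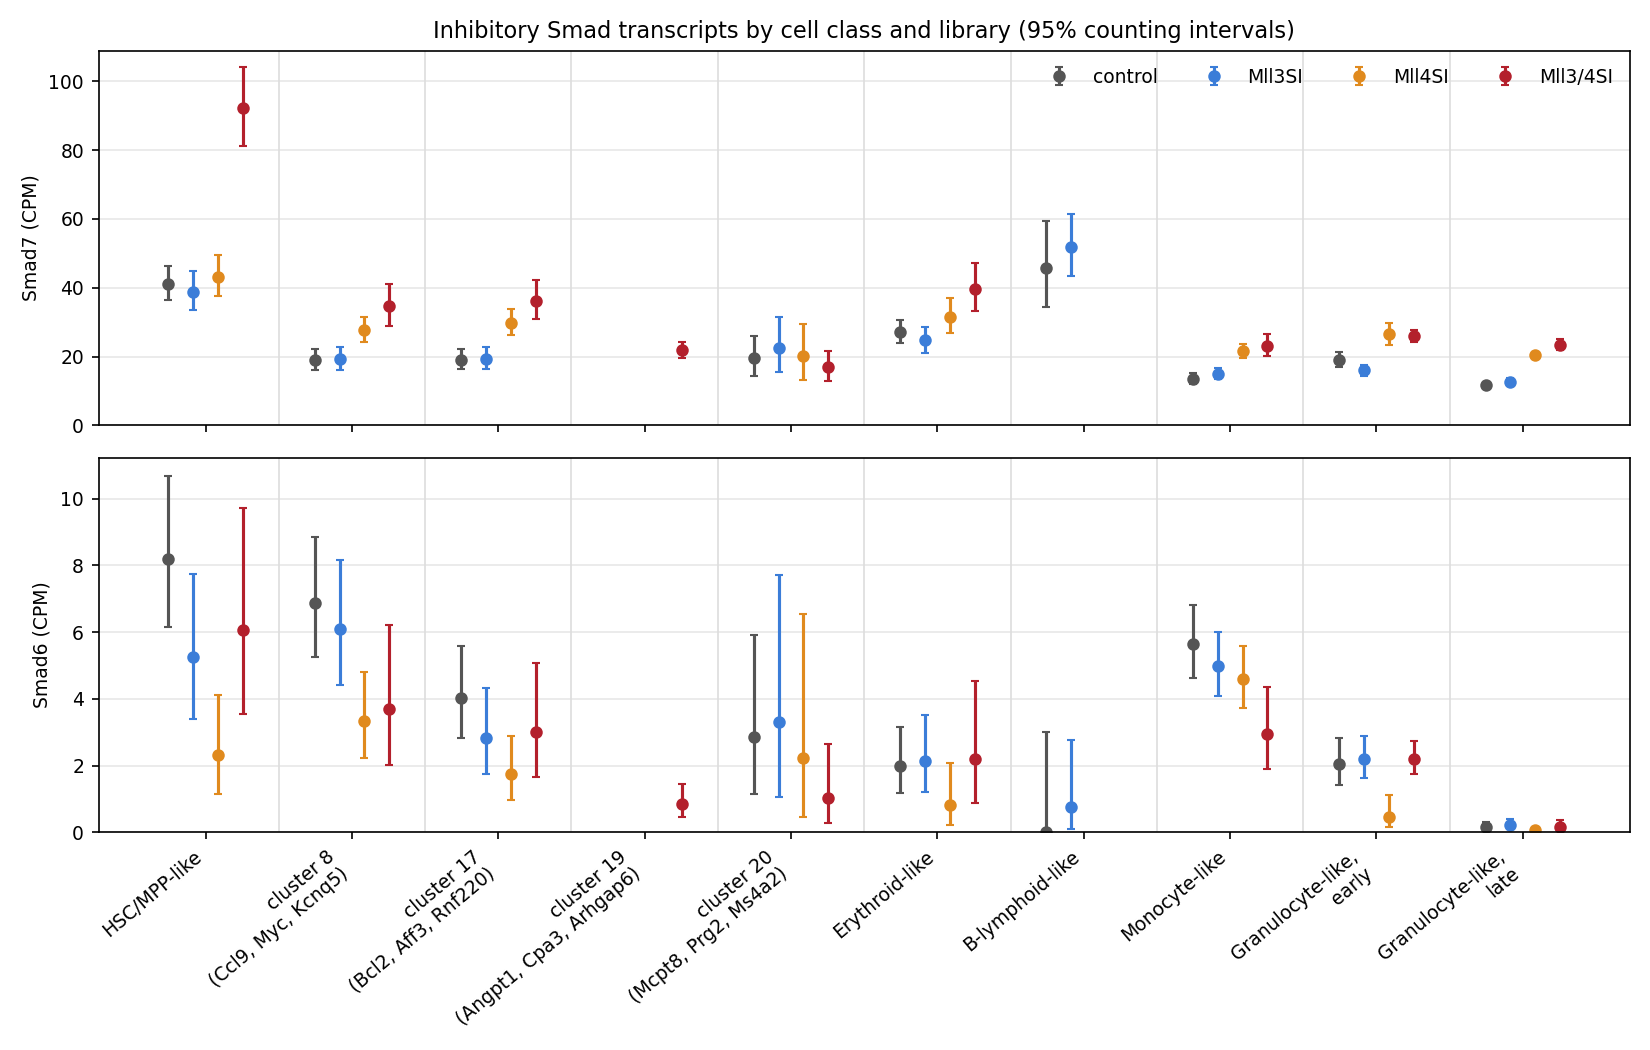
CPM of Smad7 (top) and Smad6 (bottom) in each cell class or unnamed cluster, 1 point per library with at least 50 cells there, with 95% Poisson intervals. The Mll3/4SI point of Smad7 in HSC/MPP-like cells is at 92.2 CPM, and Smad6 is at or under 0.22 CPM in late granulocyte-like cells of every library.

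Smad7 was also higher in maturing cells, and there in both the Mll4SI and the Mll3/4SI library. Granulocyte-monocyte-like levels were 13.5 CPM in control, 14.1 in Mll3SI, 21.1 in Mll4SI and 22.9 in the Mll3/4SI library. Control and Mll3SI lay together, and Mll4SI and Mll3/4SI lay above them with log2 ratios of 0.61 [0.54 to 0.74] and 0.72 [0.66 to 0.86]. Smad7 was thus the only member past the fold in this class, 1 of 9 tested in Mll4SI and 1 of 9 in Mll3/4SI, with 0 of 9 in Mll3SI. Over all 9224 genes tested, 10.7% were past the fold for Mll4SI (3.2% higher, 7.47% lower), 5.94% for Mll3/4SI (3.26% and 2.68%) and 2.21% for Mll3SI (0.856% and 1.36%). Smad7 ranked 188th and 167th from the top in Mll4SI and Mll3/4SI.

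The same difference was read within single clusters. Of the granulocyte- or monocyte-like clusters with at least 50 cells in both libraries, Smad7 was higher than in control in 11 of 11 in Mll3/4SI and 7 of 8 in Mll4SI, with 8 and 5 intervals above 0. The widest Mll3/4SI ratio was in dividing cells led by Ube2c, Cenpf and Cdc20, at 23.2 against 8.52 CPM (1.34 [0.94 to 1.95]). In the immature Elane-, Srgn- and Nkg7-led cluster the levels were 16.2, 15.7, 28.0 and 28.6 CPM. Monocyte-like cells held 13.5, 14.99, 21.6 and 23.2 CPM, so granulocyte and monocyte lineages showed alike sizes. In Mll3SI these clusters lay on both sides, 7 of 10 higher. The libraries with high Smad7 here were the 2 with Xist, and between them the ratio was 0.11 [0.038 to 0.20], with 12.3% of genes past the fold. In granulocytic and monocytic cells and in clusters 8 and 17 the effect of sex-linked differences and that of the Mll4SI label cannot be told apart. Control and Mll3SI both lacked Xist.

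**Figure D4:**
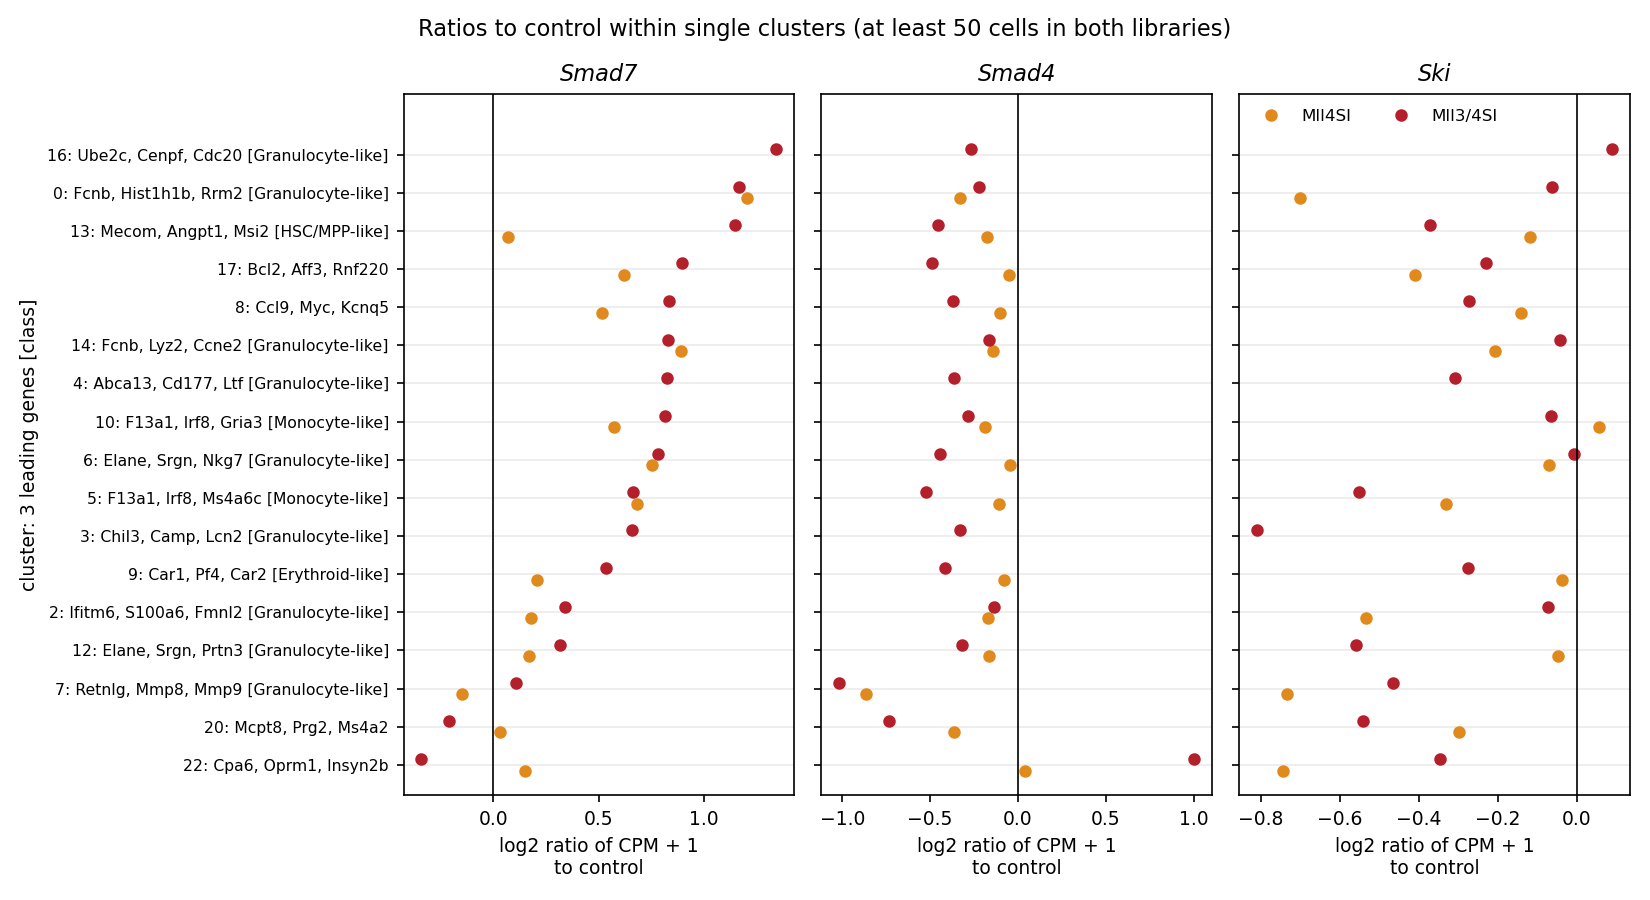
Log2 ratio of CPM + 1 to control for Smad7 (left), Smad4 (middle) and Ski (right) within single clusters, 1 point per library and cluster with at least 50 cells in both, ordered by the Mll3/4SI ratio of Smad7. Smad7 points lie to the right of 0 in 15 of 17 clusters and Smad4 points to the left in 16 of 17 for Mll3/4SI.

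Smad6 was a gene of immature and monocytic cells at low level. In control it was read at 8.20 CPM in HSC/MPP-like cells, 6.88 in cluster 8, 5.64 in monocyte-like cells and 0.15 CPM in late granulocyte-like cells, and the intervals of neighbours among the first 3 overlapped. HSC/MPP-like levels were 8.20, 5.25, 2.31 and 6.08 CPM in control, Mll3SI, Mll4SI and Mll3/4SI. Mll4SI was the lowest, with a ratio of -1.48 and an interval of [-2.91 to -0.88] for the plain ratio. Mll3SI was past the fold at -0.56, but its interval [-1.39 to 0.067] included 0, as did that of Mll3/4SI [-1.31 to 0.38]. Granulocyte marker RNA in HSC/MPP-like cells was 3291, 4551, 11677 and 2564 CPM summed in control, Mll3SI, Mll4SI and Mll3/4SI. In Mll3/4SI it was under control, as Smad6 was, and its part in the Smad6 values was not tested. In cluster 8 the Mll4SI and Mll3/4SI levels of 3.35 and 3.71 CPM were both under the control level, and cluster 19 was read at 0.85 CPM. In granulocyte-monocyte-like cells Smad6 stayed under the 5 CPM minimum in every library (1.71, 1.85, 0.93 and 1.03 CPM), so it was not among the members tested there. Over the clusters shared by all libraries Mll3/4SI was the lowest, at 1.14 against 2.53 CPM in control (-0.72 [-1.70 to -0.63]). Mll4SI was at 1.94 CPM there (-0.26 [-0.75 to -0.0036]).

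Ski and Skil encode nuclear co-repressors of the Smad complexes. Ski stood at 31.3, 31.3, 28.7 and 23.9 CPM in HSC/MPP-like cells, lowest in Mll3/4SI, where the interval of the ratio, -0.37 [-0.80 to 0.020], just included 0. In granulocyte-monocyte-like cells Ski was 32.2, 28.9, 26.9 and 24.2 CPM, with ratios of -0.15 [-0.23 to -0.080], -0.25 [-0.33 to -0.19] and -0.40 [-0.49 to -0.33]. Ski was lower than control in 16 of 17 clusters in Mll3/4SI and 13 of 14 in Mll4SI, but only 5 intervals lay below 0 in each. Over the shared clusters the Mll3/4SI ratio was -0.041 [-0.17 to 0.083]. Ski in control was high in late (41.8 CPM) and low in early granulocyte-like cells (11.8 CPM), and B-lymphoid-like cells had 3.26 CPM. Control levels in cluster 20 and in erythroid-like cells were 39.8 and 33.4 CPM.

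Skil, like Ski, was higher in late than in early granulocyte-like cells, at 19.3 CPM in control against 6.25 CPM. In HSC/MPP-like cells it was read at 8.50, 10.1, 8.18 and 7.51 CPM, with every interval of the ratio across 0. In granulocyte-monocyte-like cells the levels were 13.8, 11.5, 15.4 and 10.97 CPM. Mll3SI (-0.24 [-0.38 to -0.14]) and Mll3/4SI (-0.30 [-0.44 to -0.21]) lay below control and Mll4SI (0.16 [0.062 to 0.27]) above it, none past the fold. Over the clusters shared by all libraries the Mll3SI ratio was -0.32 [-0.52 to -0.19], while Mll4SI turned to -0.029 [-0.20 to 0.14] and Mll3/4SI moved to -0.11 [-0.31 to 0.076], both across 0. Within single granulocyte- or monocyte-like clusters Skil was lower than control in 6 of 8 in Mll4SI and 9 of 11 in Mll3/4SI.

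The wider pathway was described over 61 further genes in 5 roles. In HSC/MPP-like cells 33 of them could be tested, and past the fold were 2 higher and 1 lower in Mll3SI, 5 higher and 3 lower in Mll4SI, and 0 higher and 3 lower in Mll3/4SI. Over all genes tested in this class the shares past the fold were 5.4%, 10.2% and 9.52%, so the listed genes were near the background in Mll3SI and Mll3/4SI and above it in Mll4SI, a difference that was not tested. The list's medians were 0.033, 0.035 and -0.17, against 0.010, 0.0051 and -0.056 over all genes tested. Id2, which encodes an inhibitor of differentiation factors and is a BMP and TGF-beta target, was the one gene past the fold in all 3, at 24.9 CPM in control, 10.3 in Mll3SI, 16.4 in Mll4SI and 5.72 in the Mll3/4SI library. Every other library was below control for Id2, with ratios of -1.197 [-1.76 to -0.81], -0.58 [-1.01 to -0.21] and -1.95 [-2.96 to -1.38]. RNA of 10 T and NK cell markers in these cells was also lower than in control, at 30.04, 16.8 and 27.5 CPM summed in the same order against 59.5 CPM. Control had 2 markers at 0 and the others 3, 5 and 5, with 1 of 10 higher than control in each. Its part in the Id2 values was not tested. In granulocyte-monocyte-like cells Id2 was higher in Mll4SI, at 221 against 145 CPM (0.60 [0.58 to 0.64]), and over the shared clusters it was higher in both Mll4SI (0.61 [0.56 to 0.68]) and Mll3/4SI (0.61 [0.56 to 0.68]).

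Cdkn1c, which encodes the cell cycle inhibitor p57 and is a known TGF-beta target in stem cells, was higher in Mll3SI (7.56 CPM) and Mll4SI (8.60 CPM) than in control (2.58 CPM), with ratios of 1.26 [0.68 to 2.48] and 1.42 [0.89 to 2.65] on 36, 41 and 17 UMIs in Mll3SI, Mll4SI and control. Cdkn1c met the 5 CPM minimum mean through Mll3SI and Mll4SI, so its calls as higher do not stand apart from that filter. Among receptors, Acvr2b of the activin branch was higher in Mll4SI at 10.3 against 4.25 CPM (1.10 [0.58 to 1.999]). Zeb2, a Smad-binding repressor, was read at 509 CPM in Mll4SI against 318 in control, a ratio of 0.68 [0.60 to 0.77]. A gene on the other strand overlaps Zeb2 (Zeb2os), Cdkn1c and Acvr2b, as well as Ltbp3, Itgav, Thbs1, Inhba and Bmpr1a named further on. The strand setting of the counting is not given in the sources used here, so reads of these pairs may not be told apart.

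Lower in Mll4SI were Ltbp3, which encodes a latent TGF-beta binding protein (-0.66 [-1.25 to -0.19]), Id2 and Fkbp1a, which encodes a protein that holds type I receptors inactive (-0.51 [-0.69 to -0.35]). In Mll3/4SI, besides Id2, Itgav, an integrin that activates latent TGF-beta, was at 22.9 against 36.1 CPM (-0.64 [-1.08 to -0.26]), and Smad5, a Smad of the BMP branch, at 29.0 against 45.2 CPM (-0.63 [-1.02 to -0.28]). Bambi, a decoy receptor, was higher in Mll3SI at 10.5 against 6.98 CPM, with an interval of [-0.018 to 1.199] that included 0.

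In granulocyte-monocyte-like cells 30 of the 61 could be tested: past the fold were 0 higher and 1 lower for Mll3SI, 4 higher and 3 lower for Mll4SI, and 1 higher and 3 lower for Mll3/4SI. Over all genes tested in this class the shares past the fold were 2.21%, 10.7% and 5.94%. Thbs1, whose product activates latent TGF-beta, was at 1.79 CPM in control, 28.8 in Mll4SI and 5.02 in Mll3/4SI. It was the 1 gene counted as higher for Mll3/4SI. Thbs1 met the 5 CPM minimum mean through its Mll4SI level, so its calls as higher do not stand apart from that filter. Its Mll4SI ratio was 3.42, and 2.59 over the clusters shared by all libraries. Its Mll3/4SI ratio of 1.11 was not kept there, at 0.22 [-0.22 to 1.13] and 1.05 against 0.77 CPM. It was concentrated in mature granulocyte-like cells led by Retnlg, Mmp8 and Mmp9 (cluster 7), with 145 CPM in control, 238 in Mll4SI and 314 in Mll3/4SI. Cluster 7 held 1417 Mll4SI cells and 70 control cells.

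Inhba, which encodes an activin subunit, stood at 114 CPM in control, 208 in Mll4SI and 74.0 in Mll3/4SI in the whole class. Over the shared clusters it was 52.8, 91.9 and 75.5 CPM, so the Mll4SI library was above control both ways (0.87 and 0.79) while the Mll3/4SI ratio changed sign, from -0.61 to 0.51. Bmpr1a, a BMP receptor, did the same, with 0.74 and 0.84 in Mll4SI and with -0.53 and 0.50 in Mll3/4SI. Fkbp1a was lower in Mll3/4SI both ways, at -0.54 in each, and in Mll4SI at -0.70 in the class and -0.27 over the shared clusters. Acvr1b, an activin receptor, was lower in Mll4SI (-1.11 and -0.72 over the shared clusters), as was the co-repressor gene Tgif1 (-0.68 and -0.28). In Mll3SI the one gene past the fold in the whole class was Tgfbi, a TGF-beta-induced matrix gene, at 5.70 against 11.9 CPM (-0.94 [-1.21 to -0.90]). Inhba was within the fold there in Mll3SI, but over the shared clusters it was at 31.3 against 52.8 CPM (-0.73 [-0.83 to -0.67]).

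The genes most alike in level to 3 members were ranked by Pearson's r of log2 levels over the 18 points of class and library with enough cells, which share libraries and depth. Nearest to Smad7 were Abhd8 (r = 0.91), Cnrip1, Nlrc3, Pde4b and 2610307P16Rik. Nearest to Smad6 were Tm2d2 (r = 0.93), Erf, Tlcd2, Rxrb and Ttc13. Nearest to Skil were Sept7 (r = 0.94), Sertad3, Gna13, Kctd9 and Stk38. These are descriptions over few points.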

How the data were processed

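The deposited values were counts of UMIs per gene and cell barcode, made by the authors. Per the file headers the tool was Cell Ranger 7.1.0, and the build was mm10 per the submitters' processing notes. Chemistry was 10x 3' version 3.1 per the labels. Annotation, cell calling and strand setting are not given in the sources used here. Groups came from sample titles.

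Cells with at least 500 genes, at least 1000 UMIs and at most 10% mitochondrial UMIs were kept, and the top 0.8% per 1000 cells by Scrublet score were removed. Libraries were clustered jointly with scanpy 1.11.5 on 2000 variable genes, leaving out markers, the 10 genes and the wider pathway list (30 components, 15 neighbours, leidenalg 0.10.2 at resolution 1, 26 clusters). A class needed at least 3 markers with a log2 fold of 1, a lead of 2 markers, and more of its own than of another class's markers among the top 10 genes. This naming rule was set after clusters were seen, and names may differ from the study's. It left cluster 19 unnamed, with 0 control, 0 Mll3SI, 2 Mll4SI and 698 Mll3/4SI cells. Granulocyte-like clusters were split into early, late and a stage between by their markers. The stage between is not drawn in the figures of levels by class.

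UMIs were summed per class and library. Intervals are exact: Poisson for levels, conditional binomial for ratios and Clopper-Pearson for shares. With 1 library per group no test was made. The calculation was tested on simulated data. The members and lists were chosen with earlier results of these data known. Named genes were all 10 members, the 3 of the wider list with the largest ratio past the fold per direction and comparison, and the 5 genes most like Smad7, Smad6 and Skil. Ensembl IDs of 32235 of 32285 genes matched GENCODE M21, and 6 of 10 members matched the RefSeq promoter table. Hashtag thresholds of 121 and 324 UMIs were placed after the counts were seen.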

Additional observations from a re-analysis of the deposited data

Results flagged for a closer look

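Tgfbr2 in the Mll4SI library lay on opposite sides of control in the 2 main classes. Its log2 ratio was 0.46 [0.27 to 0.67] in HSC/MPP-like cells, at 87.7 against 63.3 CPM, and -0.24 [-0.41 to -0.13] in granulocyte-monocyte-like cells, at 7.23 against 8.71 CPM. Both counting intervals excluded 0, and neither ratio was past the fold. The difference between the classes was not tested, since each group had 1 library. Over the granulocyte- or monocyte-like clusters shared by all libraries the ratio was -0.018 [-0.20 to 0.16].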

How the results depend on the processing

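No paired analysis was possible because each group had 1 library. Alternatives other than 3 were planned: counting cluster 19 or the Cd34, Bcl2 and Aff3 clusters (8 and 17) as HSC/MPP-like, and using only clusters shared by all libraries, were chosen after seeing the data, as were the thinning to 8000 UMIs and the comparison of Mll3/4SI with Mll4SI. Smad7 in HSC/MPP-like cells of Mll3/4SI was higher than control in 12 of 13 alternatives and past the fold in 11, up to 1.36. It was 0.18 with the classes of the nearest control cells and turned to -0.32 with cluster 19 counted in. In HSC/MPP-like cells of Mll4SI the Smad7 ratio was 0.069, and 0.40 at Leiden resolution 2. In granulocyte-monocyte-like cells Smad7 was higher in 12 of 12, from 0.48 to 0.80 in Mll4SI and from 0.57 to 0.89 in Mll3/4SI.

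The HSC/MPP-like count past the fold in Mll3SI went from 1 to 0 with the mean over cells, doublets kept, Leiden resolution 2, classes of the nearest control cells, Hashtag1 cells only, cluster 19 counted in and the Cd34, Bcl2 and Aff3 clusters counted in. In Mll4SI it went from 1 to 0 with resolution 2, nearest control cells, cluster 19 counted in and the Cd34, Bcl2 and Aff3 clusters counted in, and to 2 in Hashtag1 and in Hashtag2 cells alone. The Smad6 ratio in Mll4SI was below 0 in 13 of 13, from -1.79 to -1.04. In Mll3/4SI it was also below 0 in 13 of 13, from -1.79 with cluster 19 counted in to -0.12 in Hashtag1 cells. The mean level of Smad6, 5.46 CPM, was close to the 5 CPM minimum. In Mll4SI the Smad6 ratio was past the fold in 13 of 13 but called in 9. The calls lost there were therefore lost to that minimum and not to a smaller ratio. Cluster 19 held 0 control and 0 Mll3SI cells, so counting it in left the Mll3SI ratio of Smad6 unchanged. That Mll3SI call was also lost to the minimum. In Mll3/4SI the count went from 1 to 2 in Hashtag1 cells, 4 in Hashtag2 cells and 5 with cluster 19 counted in. In granulocyte-monocyte-like cells Hashtag2 cells alone gave 0 in Mll4SI and 3 in Mll3/4SI, each against 1. Except where stated, the cause was not tested. Median-of-ratios scaling moved the median of all genes in Mll4SI granulocyte-monocyte-like cells from -0.10 to 0.018, and the share of higher among calls from 29.98% to 57.6%. Stem cell values rest on 144 to 369 cells per library, and genes under 10 CPM there on few UMIs.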
